A study of Mus musculus with 6 samples.

Results

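Genes for the synthesis, sensing, transport and export of sterols and for the synthesis of fatty acids were compared between WT and PGRN KO neutrophils. The set held 41 of the 54532 genes in the table and was chosen by name, from the known roles of its members. It was chosen with earlier results of these data known, so counts of its members beside all genes are a description, not a test. By role it held 7 genes of the mevalonate pathway, 11 that carry squalene to cholesterol, 5 of sterol sensing, 7 of fatty acid synthesis and desaturation, 4 of sterol transport and esterification, 5 of the LXR pathway and sterol export, and 2 of lipoprotein lipid and lipid droplets. In PGRN KO neutrophils 13 of 18 genes of cholesterol synthesis and 5 of 6 tested genes of fatty acid synthesis and desaturation were called higher. Of the 11 genes of sterol transport and esterification, LXR and sterol export, and lipoprotein lipid and droplets, 9 were called lower and 1 higher. Of the 5 genes that sense sterols none passed the test. Over all genes tested 7.94% were called higher and 9.95% lower. Without WT replicate 2 or PGRN KO replicate 5 the 13 and 5 called higher became 8 and 2, and the 9 called lower became 7. Calls over all genes fell as well, from 1175 higher and 1473 lower to 540 and 795 without WT replicate 2. Without PGRN KO replicate 5 they were 547 and 775.

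Cells make cholesterol from acetyl-CoA through mevalonate, isoprenoids, squalene and lanosterol. The enzymes are transcribed together by SREBP proteins, which are held in the endoplasmic reticulum by SCAP and INSIG when sterols are plentiful and are released to the nucleus when sterols run low. Oxidised sterols activate the LXR receptors, which turn on cholesterol export by ABCA1 and ABCG1. Phagocytes take in cholesterol with their prey and with lipoproteins, and release it from lysosomes through NPC2 and NPC1.

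The cells were neutrophils isolated with anti-Ly-6G magnetic beads from the bone marrow of C57BL/6J mice, either WT or PGRN KO, a knockout of progranulin (gene Grn), a secreted growth factor that is also carried to lysosomes. All 6 cultures, 3 of each genotype, were kept in medium with 10% fetal bovine serum and challenged with Candida albicans for 6 hours according to their treatment labels. The titles of the WT samples also carry the word control, which those of the PGRN KO samples do not, and whether it means more than the genotype is not stated. If it did, challenge and genotype could not be told apart. The knockout is germline, and the WT mice came from another supplier than the knockouts, so genotype and source of the mice cannot be told apart. The number of mice behind a culture was not stated, and p-values measure the spread between these libraries, which may be technical.

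Each library held 17087344 to 18821091 fragments on genes. The values are FPKM, fragments scaled to gene length and library size, and are comparable between genes per length. Grn itself was at 168, 161 and 166 FPKM in the WT libraries and at 0.242, 0.206 and 0.747 FPKM in the PGRN KO libraries, as their labels say (log2 fold change -6.91 ± 0.139 SE, limma adjusted p = 1.05e-05). The neutrophil genes S100a8 and S100a9 had means over the 6 libraries of 17400 and 33850 FPKM, and the summed level of 11 neutrophil markers was 67490 to 72100 FPKM in WT and 69280 to 79050 FPKM in PGRN KO. Markers of other cells and of immature granulocytes were not even between the genotypes, and are given beside the gene groups they moved with.

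The test was limma on log2(FPKM + 1), fitted to 14807 genes, of which 7.94% were called higher in PGRN KO and 9.95% lower at an adjusted p under 0.05. Of the 41 genes 40 were tested, and 19 were called higher, 9 lower and 12 neither. Their median log2 fold change was 0.22, against 0.003 over all genes tested. In 23 of the 40 the lowest PGRN KO value exceeded the highest WT value, and in 9 the highest PGRN KO value was below the lowest WT value, against 18.1% and 19.6% of all genes tested. The authors' scaling bears on this split. Among all called genes 44.4% were higher, but 69.7% when values were scaled to the plain totals of fragments and 70.4% in limma voom on the recovered fragments, and the 40 genes then split 23 higher to 8 lower and 25 to 8.

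The members covered a wide range of levels. The droplet coat gene Plin2 had the highest mean over the 6 libraries, 154 FPKM, followed by Npc2 at 135 FPKM, Insig1 at 109 FPKM and Srebf2 at 101 FPKM. Of the 41 members 23 had a mean of at least 10 FPKM, 13 were from 1 to under 10 FPKM, and 5 were under 1 FPKM. Of these, 27 had at least 3000 fragments over the 6 libraries, and their median coefficient of variation was 3.29% between WT libraries and 5.89% between PGRN KO libraries. Fold changes on the log2(FPKM + 1) scale understate the change of the low genes, for which the ratio of mean FPKM is given as well.

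**Figure D1:**
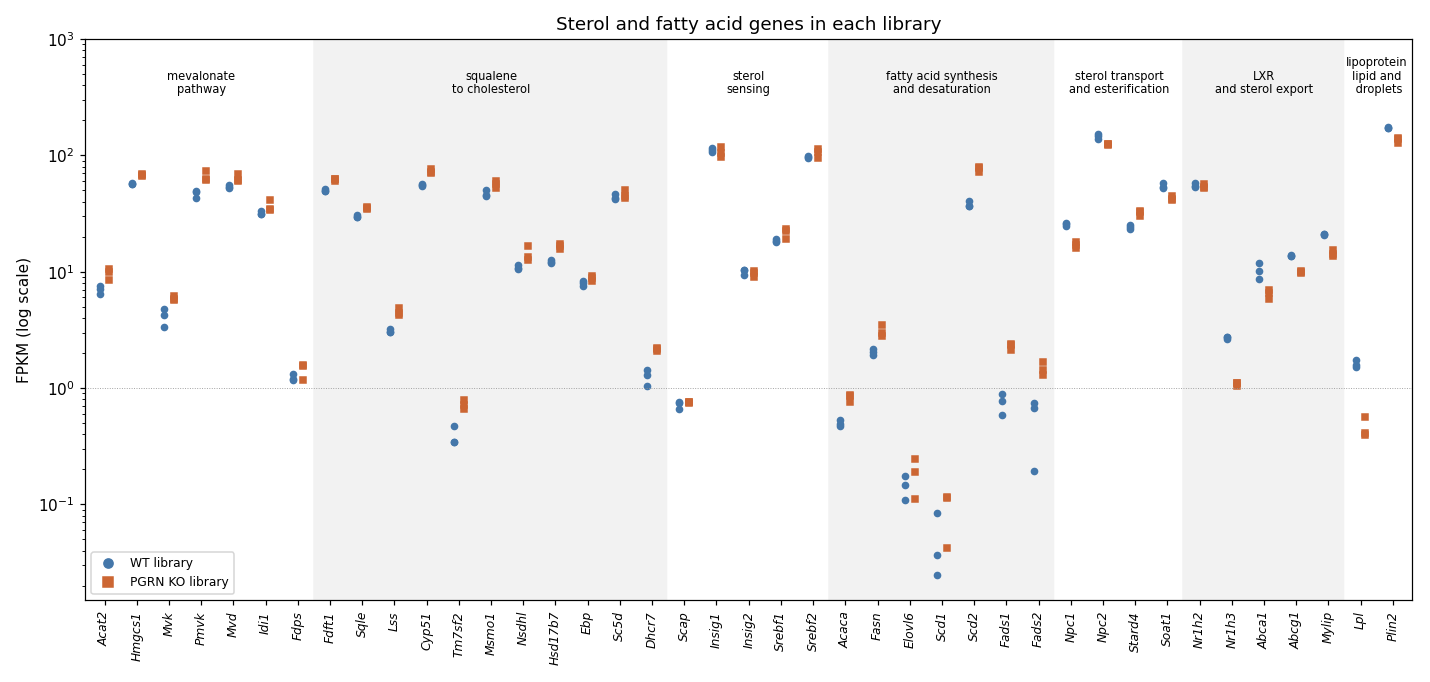
FPKM on a log scale of each of the 41 genes, grouped by role, with a circle for each of 3 WT libraries and a square for each of 3 PGRN KO libraries. Most squares of the synthesis and desaturation genes sit above the circles, most squares of the transport, export and droplet genes sit below, and the levels run from under 0.1 FPKM for Scd1 to over 150 FPKM for Plin2.

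The mevalonate pathway was higher in PGRN KO neutrophils, with 5 of 7 genes called higher and none lower. The summed level of the 7 genes was 198 to 204 FPKM in the WT libraries and 242 to 259 FPKM in the PGRN KO libraries. Hmgcs1, which condenses acetoacetyl-CoA to HMG-CoA, had the highest level of the group, at 56.6, 56.7 and 57.8 FPKM in WT and 66.2, 67.7 and 69.3 FPKM in PGRN KO. The genotypes did not overlap, and the log2 fold change was 0.24 ± 0.038 (SE, limma adjusted p = 0.00789). Pmvk, phosphomevalonate kinase, was at 49.4, 48.6 and 43.1 FPKM in WT and 74.0, 62.8 and 61.2 FPKM in PGRN KO, a ratio of means of 1.40 (log2 fold change 0.48 ± 0.087, limma adjusted p = 0.0131).

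Mvk, mevalonate kinase, was at 4.73, 4.24 and 3.36 FPKM in WT and 5.86, 5.66 and 6.22 FPKM in PGRN KO (log2 fold change 0.45 ± 0.105, limma adjusted p = 0.0309). Acat2, the cytosolic thiolase that makes acetoacetyl-CoA, was at 6.41, 7.16 and 7.55 FPKM in WT and 8.55, 10.6 and 9.92 FPKM in PGRN KO (0.41 ± 0.090, adjusted p = 0.0253). Mvd, mevalonate diphosphate decarboxylase, was at 53.7, 55.3 and 51.9 FPKM in WT and 68.5, 59.8 and 61.0 FPKM in PGRN KO (0.23 ± 0.061, adjusted p = 0.0463). In all 3 the lowest PGRN KO library was above the highest WT library, but their calls were less secure than those of Hmgcs1 and Pmvk. When 1 library was left out at a time, Acat2 passed in 1 of 6 fits (only without PGRN KO replicate 4), Mvk in 2 (without WT replicate 1 or 3) and Mvd in 0, with log2 fold changes of 0.35 to 0.49, 0.34 to 0.53 and 0.17 to 0.27.

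The other 2 genes of the pathway did not pass. Idi1, isopentenyl diphosphate isomerase, was at 31.4, 31.1 and 32.9 FPKM in WT and 34.2, 34.2 and 41.3 FPKM in PGRN KO, apart between genotypes but with a wide spread in PGRN KO (0.19, 95% interval 0 to 0.38, adjusted p = 0.156). Fdps, farnesyl diphosphate synthase, was at 1.33, 1.18 and 1.19 FPKM in WT and 1.58, 1.18 and 1.56 FPKM in PGRN KO (0.12, interval -0.088 to 0.34). Its exons share 26.7% of their bases with another annotated gene on the same strand, Gm43738, and how shared reads were counted is not stated, so the low level of Fdps is uncertain.

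From squalene to cholesterol, 8 of 11 genes were called higher and none lower, and all 11 had a positive fold change. The 11 genes summed to 257 to 269 FPKM in WT and 305 to 336 FPKM in PGRN KO. Cyp51, lanosterol demethylase, was the highest of them, at 54.4, 55.0 and 57.1 FPKM in WT and 70.1, 71.5 and 75.8 FPKM in PGRN KO. All PGRN KO libraries were above all WT libraries, with a log2 fold change of 0.38 ± 0.046 (limma adjusted p = 0.00314).

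The committed steps into sterols rose as well. Fdft1, squalene synthase, was at 51.8, 48.9 and 49.3 FPKM in WT and 60.2, 62.4 and 63.0 FPKM in PGRN KO (0.30 ± 0.042, limma adjusted p = 0.00539). Sqle, squalene epoxidase, was at 29.3, 29.6 and 30.5 FPKM in WT and 34.9, 35.3 and 36.3 FPKM in PGRN KO (0.25 ± 0.040, adjusted p = 0.00945). Lss, which closes the ring to lanosterol, was at 3.21, 3.04 and 3.03 FPKM in WT and 4.89, 4.38 and 4.21 FPKM in PGRN KO (0.42 ± 0.068, adjusted p = 0.00859). None of the 3 overlapped between genotypes, and all 3 passed in every fit without 1 library. Fdft1 shares 18.3% of its exon bases with Ctsb on the opposite strand, and the kit named for these libraries does not mark strand. Ctsb itself was lower in PGRN KO, at 802 ± 12.3 FPKM (SD, n = 3) in WT and 608 ± 32.5 FPKM in PGRN KO, so it moved opposite to Fdft1.

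Among the later enzymes, which trim lanosterol and move its double bonds, Hsd17b7 and Dhcr7 were called higher. Hsd17b7, a sterol ketoreductase, was at 11.9, 12.1 and 12.7 FPKM in WT and 15.7, 16.6 and 17.4 FPKM in PGRN KO (0.41 ± 0.055, limma adjusted p = 0.00448). Dhcr7, which makes cholesterol from 7-dehydrocholesterol, was at 1.43, 1.04 and 1.31 FPKM in WT and 2.17, 2.10 and 2.22 FPKM in PGRN KO (0.49 ± 0.082, adjusted p = 0.00994), a ratio of means of 1.72. Both passed in every fit without 1 library.

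Msmo1, a sterol demethylase, and the low gene Tm7sf2, a sterol reductase, were called with less room. Msmo1 was at 45.0, 45.7 and 50.1 FPKM in WT and 52.2, 56.2 and 59.8 FPKM in PGRN KO (0.25 ± 0.067, limma adjusted p = 0.0447). Tm7sf2 was at 0.347, 0.343 and 0.470 FPKM in WT and 0.791, 0.660 and 0.710 FPKM in PGRN KO, from 110 and 224 fragments in all (0.31 ± 0.072, adjusted p = 0.0285, ratio of means 1.86). Each passed in 1 of 6 fits without 1 library, Msmo1 without PGRN KO replicate 4 and Tm7sf2 without WT replicate 3, and their log2 fold changes ran from 0.20 to 0.30 and from 0.28 to 0.35. Of the exon bases of Tm7sf2 12.1% are shared with Vps51 on the same strand, which was at a similar level of 0.495 FPKM, so reads of Tm7sf2 are uncertain.

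Nsdhl, Ebp and Sc5d did not pass. Nsdhl, a sterol dehydrogenase, was at 11.4, 10.8 and 10.5 FPKM in WT and 12.6, 13.4 and 16.8 FPKM in PGRN KO, apart between genotypes (0.35 ± 0.101, limma adjusted p = 0.0583). Ebp, the sterol isomerase, differed by 0.13 on the log2 scale (95% interval -0.013 to 0.27) and Sc5d, sterol desaturase, by 0.062 (-0.11 to 0.23). PGRN KO replicate 6 held the highest PGRN KO value of Idi1, Nsdhl, Ebp and Sc5d, and without it the value of Sc5d was -0.008.

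Over both stages, 13 of 18 cholesterol synthesis genes were called higher against 7.94% of all genes tested, and none lower. Without WT replicate 2, PGRN KO replicate 5 or PGRN KO replicate 6 the count was 8 in each case, and in every fit without 1 library none was called lower. Fewer of all genes were called in these fits too. The sum over the 18 genes was 461 to 467 FPKM in the WT libraries and 557 to 586 FPKM in the PGRN KO libraries, and in 16 of the 18 the genotypes did not overlap. The log2 fold changes of the 18 ran from 0.062 for Sc5d to 0.49 for Dhcr7, with a median of 0.31. By ratio of means the low gene Tm7sf2 was highest, at 1.86, followed by Dhcr7 at 1.72. Markers of dividing cells moved with them: 9 of 12 cell cycle genes were called higher, with a median of 0.33 and a sum of 242 to 256 FPKM in WT and 292 to 307 FPKM in PGRN KO. The 5 primary granule genes, which promyelocytes express, were all called higher with a median of 2.31, and summed to 129 to 144 FPKM in WT and 609 to 670 FPKM in PGRN KO. Their part in the result was not tested, and in bulk libraries fewer cells of a type and less RNA per cell cannot be told apart.

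**Figure D2:**
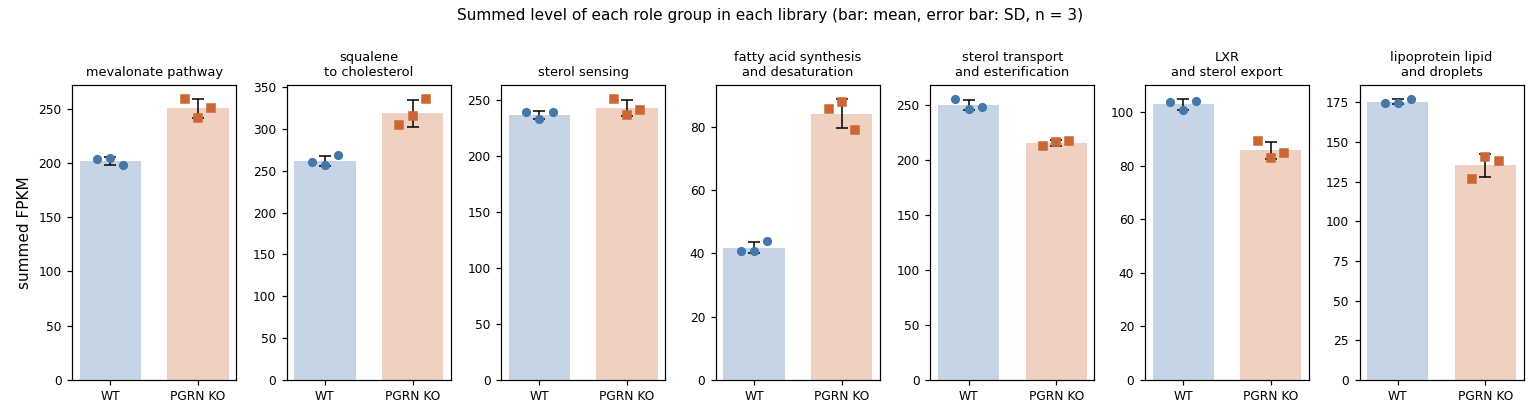
Summed FPKM of the genes of each role in each library, with bars for the mean and error bars for the SD of 3 libraries. The sums of both synthesis stages and of the fatty acid genes are higher in every PGRN KO library than in every WT library, those of transport, LXR and export, and lipoprotein lipid and droplets are lower in every PGRN KO library, and those of sterol sensing overlap.

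None of the 5 sterol sensing genes passed, against 7.94% of all genes tested called higher and 9.95% lower. In a list of 5 such a count is near those shares. Their sum was 233 to 239 FPKM in WT and 236 to 250 FPKM in PGRN KO, and their median log2 fold change was 0.020. Insig1, which retains SREBP in the endoplasmic reticulum and is itself an SREBP target, was at 115, 106 and 111 FPKM in WT and 105, 97.2 and 117 FPKM in PGRN KO. The groups overlapped, and the log2 difference was -0.061 with a 95% interval of -0.23 to 0.11 under the authors' scaling. Its sign turned under other scalings, at 0.064 after quantile normalization, 0.059 with plain totals and 0.060 in limma voom, and was 0.001 without PGRN KO replicate 5.

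Srebf1 and Srebf2 encode the SREBP factors, of which the former favours fatty acid genes and the latter sterol genes. Srebf1 was at 18.4, 18.2 and 18.99 FPKM in WT and 23.1, 22.5 and 19.3 FPKM in PGRN KO, apart but not called (0.21 ± 0.072, limma adjusted p = 0.0962). It was called without PGRN KO replicate 6, its lowest PGRN KO library, at 0.29 (adjusted p = 0.0165). Other scalings called it too, at 0.32 with plain totals (limma adjusted p = 0.0248) and 0.34 in limma voom (adjusted p = 0.000827). Srebf2 was at 95.3, 97.1 and 97.7 FPKM in WT and 113, 106 and 94.2 FPKM in PGRN KO, overlapping in PGRN KO replicate 6 (0.10, interval -0.057 to 0.26). In limma voom Srebf2 was called higher, at 0.22 (adjusted p = 0.00568). Scap, the SREBP escort, differed by 0.020 (-0.13 to 0.17) at a mean of 0.737 FPKM, and Insig2, the second retention gene, by -0.047 (-0.20 to 0.11). Insig2 was 0.063 with plain totals and 0.069 in limma voom, and Scap was -0.005 without WT replicate 3, so no direction is given for either.

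**Figure D3:**
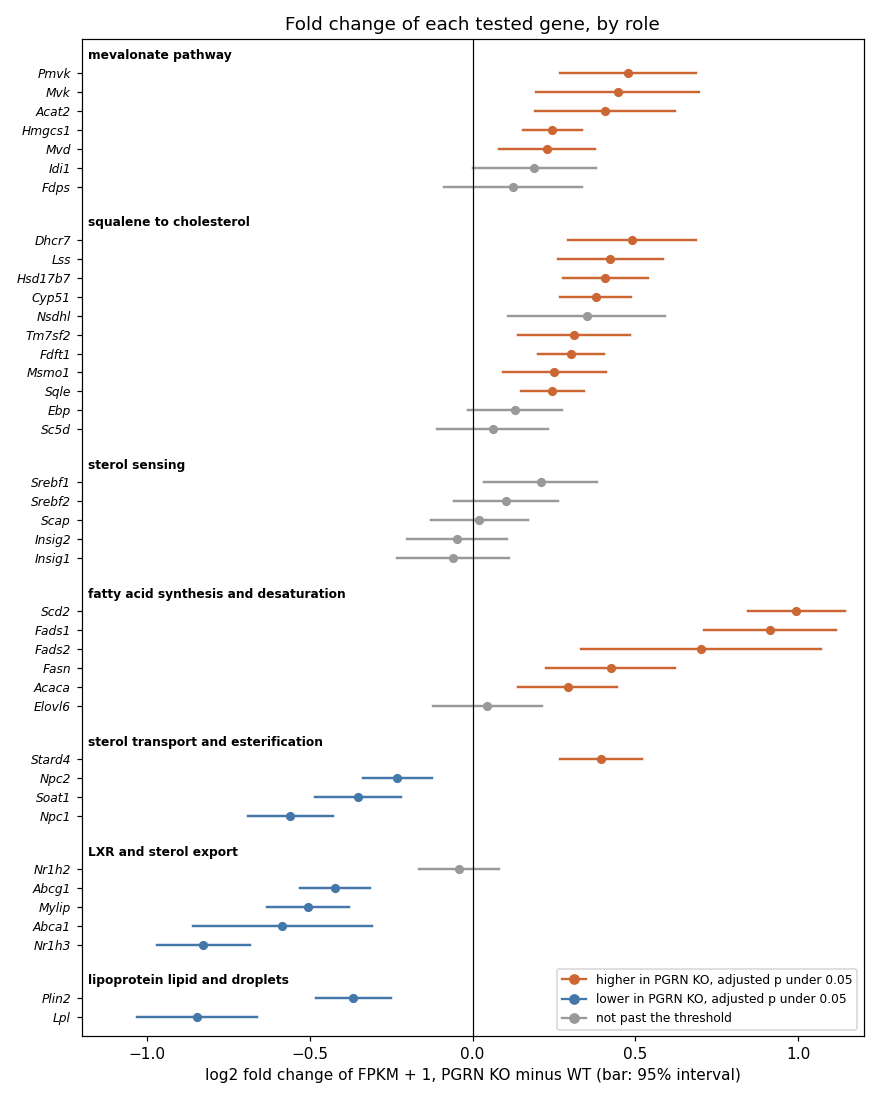
Log2 fold change of FPKM + 1, PGRN KO minus WT, of the 40 tested genes by role, with 95% intervals from limma. Orange points were called higher, blue points lower and grey points neither at an adjusted p under 0.05, and the sterol sensing genes are all grey.

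Promoters of a few members are shown because SREBP proteins bind sterol elements and E-boxes, commonly beside NF-Y sites that read CCAAT, and because these genes moved in different ways. The sequences are the 250 bases before the RefSeq start on GRCm38.p6, 5′ to 3′ on the strand of the gene. Hmgcs1 and Hsd17b7 rose, Insig1 was not called and Abca1 fell. Capitals mark TCACNCCAC (a form of the sterol element), CACGTG (the E-box) and CCAAT, on either strand. The windows are chr13:119690101-119690350 (plus strand), chr1:169969206-169969455 (minus strand), chr5:28071162-28071411 (plus strand) and chr4:53159896-53160145 (minus strand).
Hmgcs1: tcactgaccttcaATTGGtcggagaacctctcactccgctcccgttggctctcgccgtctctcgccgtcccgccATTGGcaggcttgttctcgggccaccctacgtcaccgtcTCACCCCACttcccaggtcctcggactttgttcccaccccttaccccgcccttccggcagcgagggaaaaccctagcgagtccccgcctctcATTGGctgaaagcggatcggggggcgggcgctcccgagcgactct
Hsd17b7: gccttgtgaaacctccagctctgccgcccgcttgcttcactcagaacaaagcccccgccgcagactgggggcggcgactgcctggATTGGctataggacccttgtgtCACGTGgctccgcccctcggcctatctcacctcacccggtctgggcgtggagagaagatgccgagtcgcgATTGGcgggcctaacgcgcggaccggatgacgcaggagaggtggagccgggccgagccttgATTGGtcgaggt
Insig1: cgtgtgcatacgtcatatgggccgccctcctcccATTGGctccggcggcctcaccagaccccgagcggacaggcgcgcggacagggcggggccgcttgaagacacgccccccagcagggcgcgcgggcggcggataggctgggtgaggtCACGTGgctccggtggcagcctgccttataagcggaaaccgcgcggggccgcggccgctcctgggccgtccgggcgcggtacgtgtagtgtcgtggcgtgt
Abca1: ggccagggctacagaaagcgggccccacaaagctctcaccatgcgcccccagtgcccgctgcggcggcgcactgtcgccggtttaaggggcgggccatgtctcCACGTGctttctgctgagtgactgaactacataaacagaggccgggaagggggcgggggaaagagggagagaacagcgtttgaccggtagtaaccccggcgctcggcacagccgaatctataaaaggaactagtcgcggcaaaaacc

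The window of Hmgcs1 holds the sterol element letters 137 bases before the start, with CCAAT at 237, 176 and 45 bases. Hsd17b7 has CACGTG at 143 bases with CCAAT at 165, 73 and 12 bases before the start. Insig1 has CACGTG at 101 bases and CCAAT at 216 bases, so a gene that was not called carries the same letters, and Abca1, which fell, has CACGTG at 147 bases. No marked run overlaps another in these 4 windows.

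Of the 41 members 31 had a RefSeq window of 300 bases, 250 before and 50 after the start, and some had several. CCAAT was in a window of 23 of the 31 (74.2%), against 41.1% of 27025 genes, and in 14 of 15 cholesterol synthesis genes. By direction it was in 11 of 14 members called higher and 4 of 6 called lower. CACGTG was in 7 of 31 (22.6%, against 8.09% of all genes), namely Hsd17b7, Sc5d, Dhcr7, Scap, Insig1, Abca1 and Plin2, which moved in both directions or not at all. TCACNCCAC was found in Hmgcs1 alone (3.23%, against 1.44%). An exact direct repeat of AGGTCA with a gap of 4 bases, searched for LXR, was in none of the 31, against 0.0148% of all genes. Looser forms of that repeat were not searched, so the count does not show that these promoters lack an LXR site. These matches are a description of letters in a window and say nothing of binding.

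Fatty acid synthesis and desaturation held the largest rises of the set. Of 6 tested genes 5 were called higher and none lower, with a median log2 fold change of 0.56. The count was 2 without WT replicate 2 or PGRN KO replicate 5 and 3 without WT replicate 1 or PGRN KO replicate 4, fits in which fewer of all genes were called too. The sum over the 7 genes was 40.8 to 43.9 FPKM in WT and 79.0 to 88.0 FPKM in PGRN KO. Nearly all of that sum was Scd2, a stearoyl-CoA desaturase that makes monounsaturated fatty acids (chr19:44293676-44306864, GRCm38). Scd2 was at 36.6, 36.6 and 40.3 FPKM in WT and 77.5, 80.0 and 71.2 FPKM in PGRN KO. The means stood in a ratio of 2.02, and the log2 fold change of 0.99 ± 0.062 was the largest among the 40 genes on the log2(FPKM + 1) scale (limma adjusted p = 0.000328).

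Fads1 and Fads2, the front-end desaturases of polyunsaturated fatty acids, are neighbours on chromosome 19 (chr19:10182888-10196870 and chr19:10064164-10101503) and were both higher. Fads1 was at 0.886, 0.781 and 0.591 FPKM in WT and 2.14, 2.33 and 2.41 FPKM in PGRN KO, a ratio of means of 3.05 from 132 and 442 fragments (log2 fold change 0.91 ± 0.086, limma adjusted p = 0.0013). Fads2 was at 0.742, 0.676 and 0.194 FPKM in WT and 1.30, 1.42 and 1.69 FPKM in PGRN KO (ratio of means 2.74, log2 fold change 0.70 ± 0.155, adjusted p = 0.0247). Fads2 rested on 41 and 124 fragments, and WT replicate 3 was well below the other 2 WT libraries. It passed in 2 of 6 fits without 1 library (those without WT replicate 1 or 3), with log2 fold changes of 0.53 to 0.80, whereas Fads1 passed in all 6.

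The enzymes that build the fatty acid chain, Fasn and Acaca, were called higher as well. Fasn, fatty acid synthase, was at 1.93, 2.03 and 2.17 FPKM in WT and 3.50, 2.99 and 2.79 FPKM in PGRN KO (0.42 ± 0.083, limma adjusted p = 0.0165, ratio of means 1.51). Acaca, acetyl-CoA carboxylase, was at 0.472, 0.527 and 0.492 FPKM in WT and 0.856, 0.877 and 0.766 FPKM in PGRN KO (0.29 ± 0.064, adjusted p = 0.0242, ratio of means 1.68). Neither overlapped between genotypes. Fasn passed in 3 of 6 fits without 1 library and lost its call without WT replicate 1, WT replicate 2 or PGRN KO replicate 5. Acaca passed in 1, that without PGRN KO replicate 6, and their log2 fold changes ran from 0.35 to 0.48 and from 0.27 to 0.32.

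Elovl6, a fatty acid elongase, had 47 fragments in WT and 64 in PGRN KO and a difference of 0.045 (95% interval -0.12 to 0.21), which shows no more than that a change was not detectable at this depth. Scd1, the other stearoyl-CoA desaturase listed, was not tested because its mean was 0.0696 FPKM. It was at 0.0365, 0.0248 and 0.0845 FPKM in WT and 0.116, 0.114 and 0.0421 FPKM in PGRN KO, from 12 and 24 fragments, and the groups overlapped. Of 5 adipocyte genes none reached the test, Lep and Cidea were at 0 in all libraries, and the 5 summed to at most 0.0423 FPKM in WT and 0.280 FPKM in PGRN KO.

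Genes that move and store sterols went mostly down, 3 of 4 called lower and 1 higher. Npc2, the soluble lysosomal cholesterol carrier, had the highest level, at 152, 146 and 139 FPKM in WT and 125, 123 and 125 FPKM in PGRN KO (-0.23 ± 0.044, limma adjusted p = 0.0149). Npc1, its membrane partner in the lysosome, was at 26.3, 24.8 and 25.6 FPKM in WT and 17.1, 16.02 and 18.02 FPKM in PGRN KO (-0.56 ± 0.055, adjusted p = 0.00154). Soat1, which esterifies cholesterol for storage, was at 53.3, 52.3 and 58.2 FPKM in WT and 40.9, 44.3 and 42.4 FPKM in PGRN KO (-0.35 ± 0.056, adjusted p = 0.00837). In all 3 the genotypes did not overlap.

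Stard4, a cytosolic sterol carrier and known SREBP target, went the other way, at 23.99, 23.5 and 25.1 FPKM in WT and 30.3, 33.3 and 32.8 FPKM in PGRN KO. Its log2 fold change of 0.39 ± 0.053 (limma adjusted p = 0.00459) was in the range of the synthesis enzymes. Npc2 passed in 3 of 6 fits without 1 library, losing its call without WT replicate 1, WT replicate 2 or PGRN KO replicate 5 (log2 fold changes of -0.26 to -0.20), and it was not called with plain totals or in limma voom. Npc1, Soat1 and Stard4 passed throughout. Of the exon bases of Npc1 4.52% overlap Rmc1 on the opposite strand, which was at 14.9 ± 0.957 FPKM (SD, n = 3) in WT and 12.3 ± 1.03 FPKM in PGRN KO.

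Of the LXR and export genes, 4 of 5 were called lower and none higher. Nr1h3, which encodes LXR alpha, the form of macrophages and liver (chr2:91184061-91202834), was at 2.74, 2.74 and 2.65 FPKM in WT and 1.11, 1.05 and 1.11 FPKM in PGRN KO. WT exceeded PGRN KO 2.48 times, from 346 and 153 fragments, with coefficients of variation of 1.99% and 3.29% (log2 fold change -0.83 ± 0.060, limma adjusted p = 0.000501). Nr1h2, which encodes the broadly expressed LXR beta, was at 58.3, 53.2 and 54.9 FPKM in WT and 56.1, 52.4 and 52.9 FPKM in PGRN KO, overlapping between genotypes (-0.042, 95% interval -0.16 to 0.080). With plain totals it was at 0.076 and in limma voom at 0.077, neither called.

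Within this group the known LXR targets Abcg1, Mylip and Abca1 were lower, as Nr1h3 was. Known LXR targets under other roles went both ways. Fasn (0.42) and Scd2 (0.99) were called higher, Srebf1 (0.21) was not called and Lpl (-0.85) was called lower. Abcg1, an exporter of cholesterol to lipoproteins, was at 13.5, 13.7 and 14.03 FPKM in WT and 9.80, 9.95 and 10.2 FPKM in PGRN KO (-0.42 ± 0.045, limma adjusted p = 0.00202). Mylip, a ubiquitin ligase for lipoprotein receptors, was at 20.7, 20.9 and 20.95 FPKM in WT and 15.3, 13.7 and 14.2 FPKM in PGRN KO (-0.51 ± 0.053, adjusted p = 0.00188). Abca1, an exporter of cholesterol to apolipoproteins, was at 8.58, 10.2 and 11.8 FPKM in WT and 6.94, 5.83 and 6.52 FPKM in PGRN KO (-0.59 ± 0.115, adjusted p = 0.0167). None of the 3 overlapped, but Abca1 varied more among WT libraries, with a coefficient of variation of 15.9% against 1.96% for Abcg1. Abca1 lost its call without WT replicate 2, PGRN KO replicate 5 or PGRN KO replicate 6, with log2 fold changes of -0.69 to -0.48 over the 6 fits, while Abcg1 and Mylip kept theirs in all 6.

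Lpl and Plin2 handle triglyceride and its storage, and both were lower. Lpl, lipoprotein lipase (chr8:68880491-68907448), was at 1.58, 1.52 and 1.74 FPKM in WT and 0.396, 0.410 and 0.563 FPKM in PGRN KO. WT exceeded PGRN KO 3.54 times, from 860 and 268 fragments, the largest fall in the set (log2 fold change -0.85 ± 0.077, limma adjusted p = 0.00118). Plin2, perilipin on lipid droplets, was at 173, 173 and 175 FPKM in WT and 126, 140 and 138 FPKM in PGRN KO (-0.37 ± 0.049, adjusted p = 0.00444). Both passed in every fit without 1 library.

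Over transport, LXR and export, and lipoprotein lipid and droplets together, 9 of 11 genes were called lower against 9.95% of all genes tested, and Stard4 alone was called higher. Monocyte and macrophage markers moved with them in part: 4 of the 7 tested were called lower and 1 higher, with a median log2 fold change of -0.46. Ms4a6c was at 18.4 to 20.9 FPKM in WT and 7.92 to 9.21 FPKM in PGRN KO, and Ccr2 at 3.61 to 4.05 FPKM and 1.48 to 1.99 FPKM. Ly6c2 went up, so the summed level of all 10 markers was 544 to 551 FPKM in WT and 558 to 707 FPKM in PGRN KO, and the tissue macrophage markers C1qa and C1qb were at or near 0 in every library. Of 5 stromal markers the 2 tested were called lower, and the 5 summed to 4.22 to 5.13 FPKM in WT and 1.70 to 2.32 FPKM in PGRN KO, with Cxcl12, Lepr and Pdgfra under 0.1 FPKM throughout. Their part in the result was not tested.

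Markers of B and plasma cells were higher in PGRN KO too, 4 of 4 tested, with a sum of 430 to 445 FPKM in WT and 2162 to 2455 FPKM in PGRN KO that was mostly Igkc, while Ms4a1 was under 0.1 FPKM. Basophil and mast cell markers summed to 2.01 to 2.44 FPKM in WT and 10.9 to 12.4 FPKM in PGRN KO (4 of 5 called higher), erythroid markers to 1.01 to 3.14 and 5.46 to 6.36 FPKM (3 of 4 tested), and T and NK markers to 2.61 to 3.29 and 7.61 to 8.67 FPKM (1 of 2 tested, with Cd3e and Cd3g at 0). Of the 11 neutrophil markers 1 was called higher and 2 lower. The part of these cells in the lipid genes was not tested.

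**Figure D4:**
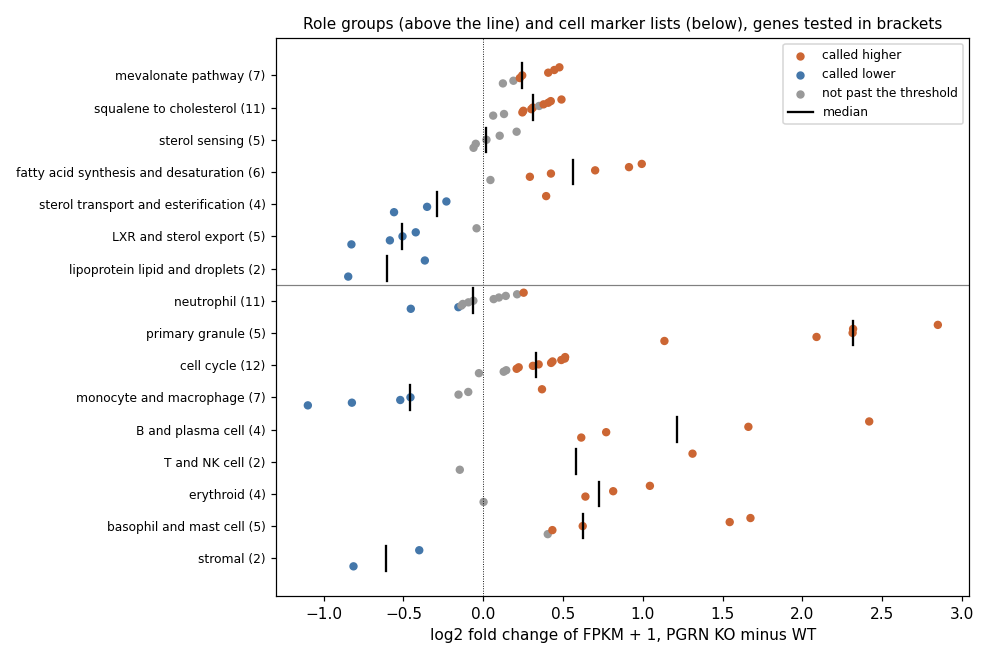
Log2 fold change of FPKM + 1, PGRN KO minus WT, of each tested gene of the 7 role groups (above the line) and of the cell marker lists (below), with a bar for the median of each list and the number of genes tested in brackets. The cholesterol synthesis genes lie in the same range as the cell cycle markers, and the LXR and export genes in the range of the monocyte and macrophage markers. The primary granule genes and 2 of the 4 B and plasma cell markers, Igkc and Jchain, lie to the right of every member. So do the basophil and mast cell markers Prss34 and Mcpt8, Nkg7 of the T and NK list and Hba-a1 of the erythroid list.

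Other genes of the same pathways, 92 that are not among the 41, were less one-sided. Of 81 tested, 11 were called higher and 14 lower (7.94% and 9.95% over all genes), with a median log2 fold change of 0.010. Aacs, which activates acetoacetate, was at 22.3, 21.3 and 19.4 FPKM in WT and 26.1, 28.2 and 29.3 FPKM in PGRN KO (0.40 ± 0.069, adjusted p = 0.0111). Por, the reductase that supplies electrons to Cyp51 and Sqle, fell from 193, 189 and 182 FPKM in WT to 111, 99.0 and 105 FPKM in PGRN KO (-0.83 ± 0.054, adjusted p = 0.000352).

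None of 7 other sterol sensing genes was called, against 7.94% of all genes tested called higher and 9.95% lower. In other fatty acid synthesis 4 of 13 tested were called higher and none lower. Elovl5, an elongase of polyunsaturated fatty acids, rose from 10.1 ± 0.542 FPKM (SD, n = 3) in WT to 14.4 ± 0.339 FPKM in PGRN KO (0.47 ± 0.054 SE, limma adjusted p = 0.00251). Tecr, which completes each round of elongation, rose from 39.6 ± 1.59 to 53.6 ± 4.02 FPKM (adjusted p = 0.00732). Acly (0.25, adjusted p = 0.00894) and Hacd2 (0.31, adjusted p = 0.0275) were the other 2, named after their values were seen.

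The lysosomal and neutral cholesterol ester hydrolases fell with Npc1 and Npc2. Lipa, which frees cholesterol from esters in the lysosome, fell from 87.8 ± 3.94 FPKM (SD, n = 3) in WT to 52.6 ± 6.52 FPKM in PGRN KO (-0.74 ± 0.088 SE, limma adjusted p = 0.00303). Nceh1, which does so outside it, fell from 16.2 ± 0.734 to 9.65 ± 0.791 FPKM (-0.70 ± 0.069, adjusted p = 0.00159). In all 4 of 17 tested genes of other transport and export were called lower, with Stard3 (-0.24) and Rxra, the partner of LXR (-0.43), and Lpcat3, an LXR target, was called higher (0.19, adjusted p = 0.0274), the last 3 named after their values were seen. Of 7 lipid uptake receptors 3 were called lower and 1 higher. Msr1, a scavenger receptor, fell from 9.67 ± 0.737 to 5.82 ± 0.779 FPKM (-0.65 ± 0.096, adjusted p = 0.00658), and Lrp1 (-0.64), Olr1 (-0.31) and, called higher, Scarb1 (0.24) were named after their values were seen.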

How the data were processed

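The 6 libraries, 3 WT and 3 PGRN KO, were grouped by their genotype labels. Per the paper and the submitters' processing notes, the authors filtered reads from polyadenylated RNA, mapped them to mm10/GRCm38 (HISAT2 2.0.5) and counted them per gene (featureCounts 1.5.0-p3, DESeq2 1.20.0 for their own test). The paper names other versions and HTSeq, and a multiplicity of infection other than the 1:1 of the labels. The deposited values are FPKM of 54532 genes, of which 31614 were at 0 throughout. Multiplied by gene length, all values above 0 were whole fragments within 0.05. The library sizes the authors divided by follow median-of-ratios size factors, and plain totals are 1.04 times them in WT and 0.954 times in PGRN KO.

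From FPKM, log2(FPKM + 1) was fitted with limma 3.58.1 (lmFit, eBayes with trend) in R 4.3.3 for genes with a mean of at least 0.1 FPKM, two-sided, with p-values adjusted by Benjamini-Hochberg over all 14807. An exact permutation test of 3 against 3 cannot go below p = 0.1. The fit was tested on simulated data with changes larger than most of those reported here, so that test does not show how well smaller changes are found. Python 3.11.15 and matplotlib 3.10.9 read, counted and drew. Every member was to be named, called ones with each library's value, and of the other pathway genes the 5 per direction with the largest fold change among called ones with a mean of at least 1 FPKM, of which 1 is not reported here. The members and lists were chosen with earlier results of these data known. Fragment numbers cover counting error only. Gene positions are as deposited. Alternatives were other pseudocounts, filters, scalings and eBayes options, limma voom on the recovered fragments and each library left out.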

Additional observations from a re-analysis of the deposited data

How the results depend on the processing

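All 28 called members kept their direction in every alternative, and 18 of them (11 higher, 7 lower) stayed called in all. Counts depended on scaling and on which library was left out, as did counts over all genes. Over all genes, 1175 called higher and 1473 lower became 540 to 913 and 775 to 1248 without 1 library. The 19 members called higher became 11 without WT replicate 2 or without PGRN KO replicate 5 (11 to 15 over the fits without 1 library), and the 9 called lower became 7 to 9. The median of members, 0.22, was 0.25 after quantile normalization, 0.33 with plain totals, 0.36 in limma voom and 0.20 to 0.24 without 1 library. Plain totals and voom moved the median of all genes by 0.064 and 0.121, and the excess of the members' median over it was 0.199 to 0.265 in all settings. Other pathway genes called higher, 11 as reported, were 22 with plain totals, 25 in voom and 5 to 9 without 1 library (5 without WT replicate 2, WT replicate 3 or PGRN KO replicate 5, and 6 without WT replicate 1). Those called lower, 14, were 8 with plain totals and 8 to 14 without 1 library (8 without WT replicate 2 or PGRN KO replicate 5). Members that were not called and turned sign were Insig1 (0.064 quantile, 0.059 plain totals, 0.060 voom, -0.13 to 0.001 without 1 library, the highest without PGRN KO replicate 5), Insig2 (0.063 plain totals, 0.069 voom), Nr1h2 (0.076 and 0.077), Sc5d (-0.008 without PGRN KO replicate 6, up to 0.112 without others) and Scap (-0.005 without WT replicate 3, up to 0.034). The cause was not tested. Calls were gained by Idi1, Nsdhl, Ebp and Srebf1 with plain totals and in voom, and by Sc5d and Srebf2 in voom. Median-of-ratios scaling changed no member's call, since the deposited values carry it. No paired analysis was possible because the replicate numbers of the genotypes are not shared. Depth limits Scd1, Elovl6, Fads2 and Tm7sf2.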

Other observations

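Of 18 tested genes of fatty acid activation and droplets outside the 41, 5 were called lower and 1 higher (limma, adjusted p under 0.05), against 9.95% and 7.94% of all genes tested, and 12 were not called. Their median log2 fold change was -0.027. Fabp5, a fatty acid carrier, fell from 10.9 ± 0.854 FPKM (SD, n = 3) in WT to 6.15 ± 0.558 FPKM in PGRN KO (log2 fold change -0.74 ± 0.081 SE, adjusted p = 0.00223). Acsl3, an acyl-CoA synthetase, rose from 0.816 ± 0.213 to 1.37 ± 0.123 FPKM (0.39 ± 0.103, adjusted p = 0.0454). The other 4 called lower, named after their values were seen, were the acyl-CoA synthetase Acsl1 (-0.46), the phosphatidate phosphatase Lpin2 (-0.26), the triglyceride lipase Pnpla2 (-0.24) and its inhibitor Hilpda (-0.19). Plin1 and Cidec, coat genes of adipocyte droplets, were at 0 in all 6 libraries.

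Fatty acid oxidation had no common direction. Of 11 tested genes 2 were called higher and 1 lower, named after their values were seen: Cpt2, which transfers acyl groups in the mitochondrion (0.29, limma adjusted p = 0.0419), Acadl, a long-chain dehydrogenase (0.24, adjusted p = 0.0259), and Acadvl, a very-long-chain dehydrogenase (-0.32, adjusted p = 0.0185). The summed level of the list was 111 to 115 FPKM in WT and 112 to 118 FPKM in PGRN KO.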
